A study of Mus musculus with 6 samples.

Results

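Elastin, the fibrillins, the fibulins and the microfibril-associated proteins MFAP4 and MFAP5 build elastic fibres and the microfibrils around them. The 10 genes described here are Eln, Fbn1, Fbn2, Fbln1, Fbln2, Fbln5, Efemp1, Efemp2, Mfap4 and Mfap5. They were taken as a named list and matched by symbol, and all 10 were found among 57180 genes and passed the filter on low counts, as did 17639 genes in all.

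The libraries, 3 in each of 2 groups, hold RNA of primary corneal endothelial cells of mice, read by RNA-seq. Both groups carry the Q455K allele of Col8a2, a collagen chain of Descemet membrane, on both chromosomes (Col8a2Q455K/Q455K), a model of Fuchs endothelial corneal dystrophy. The first group has that genotype alone (Col8a2 group) and in the second, Col8a2Q455K/Q455K/Tcf4+/- by its label, 1 copy of Tcf4 is knocked out as well (Tcf4+/- group). Tcf4 encodes a transcription factor of the E protein class. The labels name no drug or other agent, and the comparison asks what the loss of 1 Tcf4 copy does in the disease model. The labels give no age, sex or way in which the Tcf4 knockout was made, and they do not say whether a library is 1 animal or a pool of corneas. There is thus no group without the Col8a2 mutation in what follows, and p-values measure the spread between these libraries, part of which may be technical.

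Elastic fibres form when tropoelastin, the soluble product of Eln, is laid down on a scaffold of fibrillin microfibrils and cross-linked by lysyl oxidases. The short fibulins are encoded by Fbln5, Efemp1 and Efemp2. Those of Fbln5 and Efemp2 bind both elastin and cross-linking enzymes, and MFAP4 and MFAP5 attach to the microfibrils. In the eye, fibrillin microfibrils form the zonule that holds the lens, and elastic fibres are found in the outflow tissues. Heterozygous mutations of human FBN1 cause Marfan syndrome, in which the lens can dislocate, and a mutation of human EFEMP1 causes an inherited macular dystrophy.

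Each library held 30344161 to 54265479 estimated counts in total, the fewest in Tcf4+/- replicate 3. Corneal endothelium markers were present in every library, with a summed level of 14965 to 22429 CPM in the Col8a2 group and 12235 to 22408 CPM in the Tcf4+/- group. CPM is a gene's count relative to the total of its library, after TMM scaling of that total. Markers of neighbouring tissues were present too: 8 keratocyte genes of the stroma summed to 6043 to 18333 CPM over the 6 libraries and 5 pigment cell genes to 336 to 1499.9 CPM. Lens markers stood apart in Tcf4+/- replicates 2 and 3, at 4068 and 10781 CPM summed over 12 genes, against 33.9 to 613 CPM in the other libraries. Of the lens list, Crygd, Crygs, Mip and Lim2 had a count of 0 in at least 1 library. Photoreceptor markers summed to 9383 CPM in Tcf4+/- replicate 3 and to 2162 to 4585 CPM in the other libraries. Erythroid markers summed to 531 to 1968 CPM in the Col8a2 group and 1362 to 6127 CPM in the Tcf4+/- group, and corneal epithelium markers to 2973 to 6377 and 2222 to 6613 CPM. All 5 photoreceptor and all 5 erythroid markers were fitted higher in the Tcf4+/- group. By edgeR 1 and 3 of them had an unadjusted p under 0.05, beside 2.42% of all genes, and 0 passed after adjustment. Tcf4 itself stood at 313, 470 and 430 CPM in the Col8a2 libraries and at 440, 599 and 373 CPM in those labelled Tcf4+/-. The knockout in the label is therefore not seen in the summed counts of the gene, and directions below refer to libraries by their labels.

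The sequence before the start of 3 fibulin genes is shown because these windows overlap no annotated exon. Spread was not used in this choice, although among the fibulins Fbln1 varied most between libraries, and Fbln5 and Efemp2 least. E proteins such as Tcf4 bind E-boxes (CANNTG on either strand, which reads the same on both), and each E-box is in capitals. Each window is the 250 bases before an annotated start in RefSeq, build GRCm38.p6, written 5′ to 3′ on the strand of the gene. Fbln1 is at chr15:85205699-85205948 (+), Fbln5 at chr12:101819120-101819369 (-) and Efemp2 at chr19:5473696-5473945 (+), and none of these windows overlaps an annotated exon. The bases after the start match the beginning of a GENCODE M21 transcript for Fbln1. No such match was found for the Fbln5 and Efemp2 starts, which rest on RefSeq.
Fbln1: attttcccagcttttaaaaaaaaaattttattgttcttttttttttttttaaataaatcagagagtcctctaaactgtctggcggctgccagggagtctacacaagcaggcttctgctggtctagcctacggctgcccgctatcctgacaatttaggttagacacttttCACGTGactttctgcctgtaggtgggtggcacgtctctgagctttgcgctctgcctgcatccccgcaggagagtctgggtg
Fbln5: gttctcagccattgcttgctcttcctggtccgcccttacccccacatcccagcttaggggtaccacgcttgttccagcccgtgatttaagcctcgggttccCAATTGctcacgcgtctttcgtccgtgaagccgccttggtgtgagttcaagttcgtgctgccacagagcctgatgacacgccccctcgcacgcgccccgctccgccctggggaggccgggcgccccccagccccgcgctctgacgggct
Efemp2: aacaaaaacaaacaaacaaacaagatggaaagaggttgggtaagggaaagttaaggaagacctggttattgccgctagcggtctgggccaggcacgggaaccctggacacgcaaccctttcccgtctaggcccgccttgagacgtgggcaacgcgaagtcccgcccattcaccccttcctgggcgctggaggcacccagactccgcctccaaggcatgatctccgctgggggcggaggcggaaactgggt

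Fbln1 held 1 E-box, which begins 81 bases before the start, and Fbln5 held 1, which begins 149 bases before it. Efemp2 held 0. Of 32851 promoter windows of this length in the table, 66.2% held at least 1 E-box, so the match in Fbln1 and Fbln5 is the common case. The version CAGGTG, searched on both strands, was in 0 of the 3 windows and in 17.2% of all windows. In all, 6 of the 10 genes had a window among those searched. The search left out 1 chromosome, so a window of a gene there would not have been found. Those of Fbn1, Fbln2 and Efemp1 and further starts of Fbln1, Fbln5 and Efemp2 overlap annotated exons and are not shown. Of these further starts, that of Fbln1 has 2 E-boxes, which begin 140 and 48 bases before it, and that of Fbln5 has 0. The window of this further Fbln1 start overlaps the one shown, and its E-box at 140 bases is the CACGTG already shown. Eln, Fbn2, Mfap4 and Mfap5 had none among the windows searched.

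None of the 10 genes passed the test between the groups, and the libraries of the groups overlapped for each. With edgeR's quasi-likelihood test and Benjamini-Hochberg adjustment over all genes, 0 of 10 were called, each at an adjusted p of 0.99988. The share called among all 17639 genes was 0%. At an unadjusted p under 0.05 there were also 0 of 10, where the share of all genes was 2.42%. The values of the groups did not overlap for 0 of 10, where the share of all genes was 8.1%. DESeq2 called 0 of 10 and 0.463% of the 22656 genes for which it gave an adjusted p. By fitted sign 4 genes were higher and 6 lower in the Tcf4+/- group, with a median log2 fold change of -0.18 beside 0.001 over all genes tested. The median standard error of the 10 was 0.51, so these data do not resolve modest changes.

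**Figure D1:**
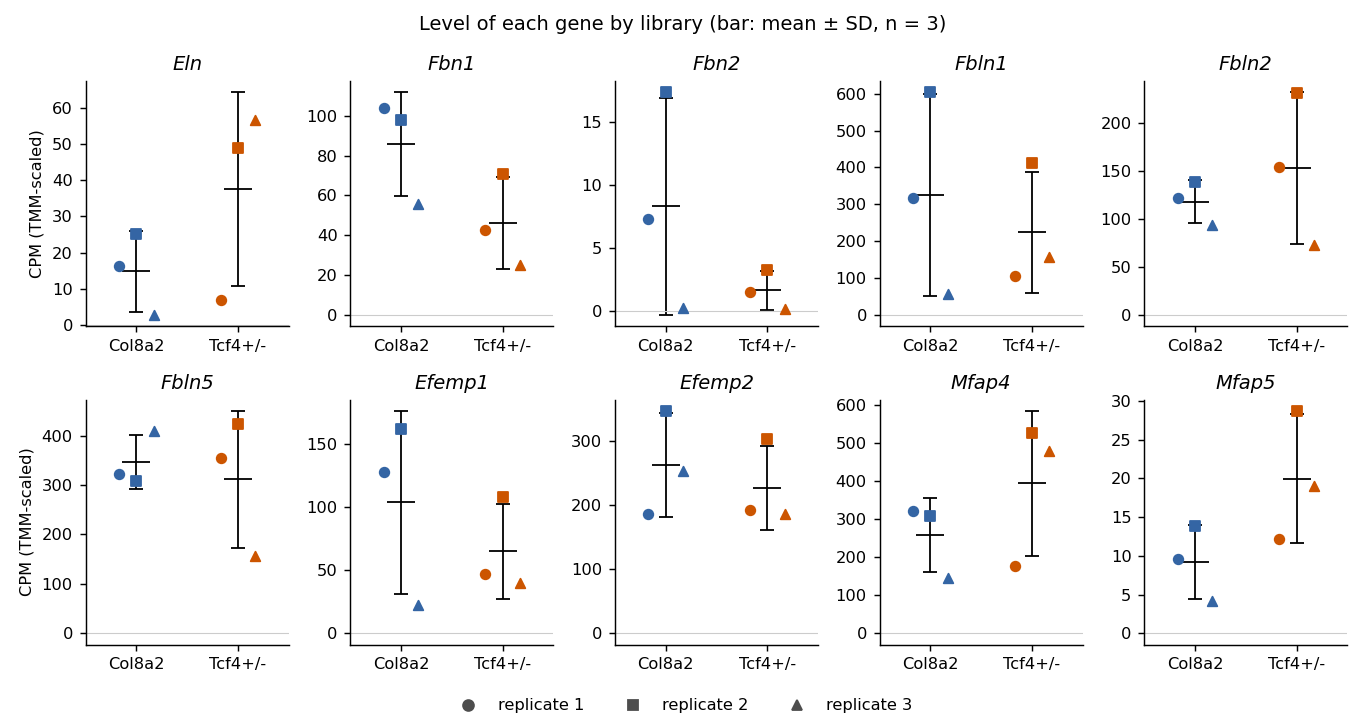
Level of each of the 10 genes in CPM (vertical axis, from 0) in the 3 Col8a2 and 3 Tcf4+/- libraries; points are libraries with shapes for replicate numbers, and bars are mean ± SD. The groups overlap in every panel, and Col8a2 replicate 3 (blue triangle) is the lowest library for 5 genes.

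Eln encodes tropoelastin, the core of the fibre. It stood at 16.4, 25.2 and 2.79 CPM in Col8a2 replicates 1 to 3 and at 6.84, 48.9 and 56.7 CPM in Tcf4+/- replicates 1 to 3. The 2 highest libraries were thus both labelled Tcf4+/-, but Tcf4+/- replicate 1 lay below 2 of the 3 Col8a2 libraries. The means were 14.8 ± 11.3 and 37.5 ± 26.8 CPM (SD, n = 3 each). The fitted log2 fold change was 1.34 (SE 0.84), with a 95% confidence interval of -0.54 to 3.22. As a ratio this is 2.53, and its interval (0.689 to 9.30) holds both lower and much higher levels in the Tcf4+/- group.

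The highest Eln libraries, Tcf4+/- replicates 2 and 3, are also the 2 with the high lens markers given above. Of the 11 lens markers tested, 11 were fitted higher in the Tcf4+/- group. By edgeR 8 of them had an unadjusted p under 0.05, beside 2.42% of all genes, and 0 passed after adjustment. DESeq2 called 1 of them after adjustment, beside 0.463% of the genes for which it gave an adjusted p. Leaving out each library in turn gave log2 fold changes of 0.84 (without Col8a2 replicate 3) to 1.97 (without Col8a2 replicate 2) for Eln. Without Tcf4+/- replicates 2 and 3 together, which leaves 1 Tcf4+/- library that is assumed to vary like the Col8a2 libraries, the log2 fold change of Eln was -1.12. The part of lens tissue in the Eln level was not tested. In bulk samples such as these, fewer cells of a type and less RNA per cell cannot be told apart.

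The fibrillins form the backbone of the microfibril, and both were fitted lower in the Tcf4+/- group. Fbn1 stood at 104, 97.7 and 55.9 CPM in the Col8a2 libraries and at 42.7, 70.9 and 25.1 CPM in the Tcf4+/- libraries. Here 2 of the Tcf4+/- libraries lay below all Col8a2 libraries, and Tcf4+/- replicate 2 lay above Col8a2 replicate 3. The means were 85.8 ± 26.1 and 46.2 ± 23.1 CPM (SD, n = 3 each). For Fbn1 the log2 fold change was -0.89 (SE 0.41), with a 95% confidence interval of -1.81 to 0.02. It had the smallest unadjusted p of the 10 genes, 0.0545 (edgeR). Fbn1 was fitted lower under all 16 other settings tried, from -1.33 to -0.60, with an unadjusted p under 0.05 in 5 of them and an adjusted p of at least 0.774.

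Fbn2, the fibrillin best known from development, was close to the limit of detection in part of the libraries. It stood at 7.33, 17.4 and 0.277 CPM in the Col8a2 libraries and at 1.53, 3.27 and 0.203 CPM in the Tcf4+/- libraries. Replicate 3 of each group was the lowest, with 14 and 6 counts, and the level within the Col8a2 group alone ranged 62.9-fold. The fitted value, -2.32 on the log2 scale (SE 1.35, 95% confidence interval -5.33 to 0.70), was the largest in size of the 10. It stayed negative under all 16 other settings, between -3.26 and -0.61.

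The ratio of the fibrillins shows how unequal they were within a library. In CPM, Fbn1 was 14.2 and 5.61 times Fbn2 in Col8a2 replicates 1 and 2 and 27.97 and 21.7 times in Tcf4+/- replicates 1 and 2. In Col8a2 replicate 3 and Tcf4+/- replicate 3 the ratio was 202 and 124, from the 14 and 6 Fbn2 counts given above.

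Fbln1 and Fbln2 encode the long fibulins, which bind fibronectin, laminins and the proteoglycans of basement membranes. Fbln1 stood at 317, 604 and 56.4 CPM in the Col8a2 libraries and at 106, 412 and 156 CPM in the Tcf4+/- libraries. It ranged 10.7-fold between its lowest and highest library, and both of these were in the Col8a2 group, so the Tcf4+/- libraries lay within the Col8a2 range. Its log2 fold change was -0.54 (SE 0.75), and without Col8a2 replicate 2, the highest library, it was 0.27.

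Fbln2 stood at 122, 138 and 93.8 CPM in the Col8a2 libraries and at 154, 231 and 73.2 CPM in the Tcf4+/- libraries. Both the highest and the lowest library were Tcf4+/- here, replicates 2 and 3. The groups differed by 0.38 on the log2 scale (SE 0.40). The sign was opposite without Tcf4+/- replicate 2, at -0.04, and on the TPM scale, at -0.09. On that scale, which corrects for length, the median gene was at -0.15 or -0.18, depending on the pseudocount, so Fbln2 was above the median there too.

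The short fibulins were the steadiest of the set, apart from Efemp1. Fbln5, whose product carries an integrin-binding motif and is needed for elastic fibre formation in mice, stood at 321, 308 and 409 CPM in the Col8a2 libraries and at 355, 423 and 155 CPM in the Tcf4+/- libraries. Without Tcf4+/- replicate 3 the range was 308 to 423 CPM. For Fbln5 the groups differed by -0.15 on the log2 scale (SE 0.39), and by 0.16 without that library.

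Efemp2, which encodes fibulin-4, a partner of lysyl oxidase, had the narrowest range. It stood at 185, 347 and 254 CPM in the Col8a2 libraries and at 192, 303 and 187 CPM in the Tcf4+/- libraries, 1.87-fold between the lowest and highest. The groups covered nearly the same values. Efemp2 had a log2 fold change of -0.21 (SE 0.35), with a 95% confidence interval of -0.98 to 0.57. It was 0.05 without Col8a2 replicate 2.

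Efemp1, which encodes fibulin-3, stood at 128, 161 and 22.4 CPM in the Col8a2 libraries and at 46.7, 108 and 40.2 CPM in the Tcf4+/- libraries. As for Fbln1, the Col8a2 group held both the highest and the lowest library, replicates 2 and 3. The fitted difference was -0.67 on the log2 scale (SE 0.63). It was negative under all 16 other settings.

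The microfibril-associated genes were both fitted higher in the Tcf4+/- group. Mfap4, a fibrinogen-domain protein that binds elastin and fibrillin, stood at 320, 308 and 145 CPM in the Col8a2 libraries and at 176, 527 and 479.7 CPM in the Tcf4+/- libraries. Tcf4+/- replicates 2 and 3 were the highest, as for Eln, and Tcf4+/- replicate 1 lay between the Col8a2 libraries. Mfap4 had a log2 fold change of 0.61 (SE 0.47), and without Tcf4+/- replicates 2 and 3 it was -0.55.

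Mfap5, also called MAGP-2, is a small microfibril glycoprotein. It stood at 9.60, 13.8 and 4.19 CPM in the Col8a2 libraries and at 12.2, 28.7 and 19.0 CPM in the Tcf4+/- libraries. Only Col8a2 replicate 2 and Tcf4+/- replicate 1 crossed between the groups. Its log2 fold change was 1.12 (SE 0.55), with a 95% confidence interval of -0.11 to 2.34 and an unadjusted edgeR p of 0.0697. The sign was positive under all 16 other settings, from 0.39 to 1.54, and the lowest of these was without Tcf4+/- replicates 2 and 3.

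**Figure D2:**
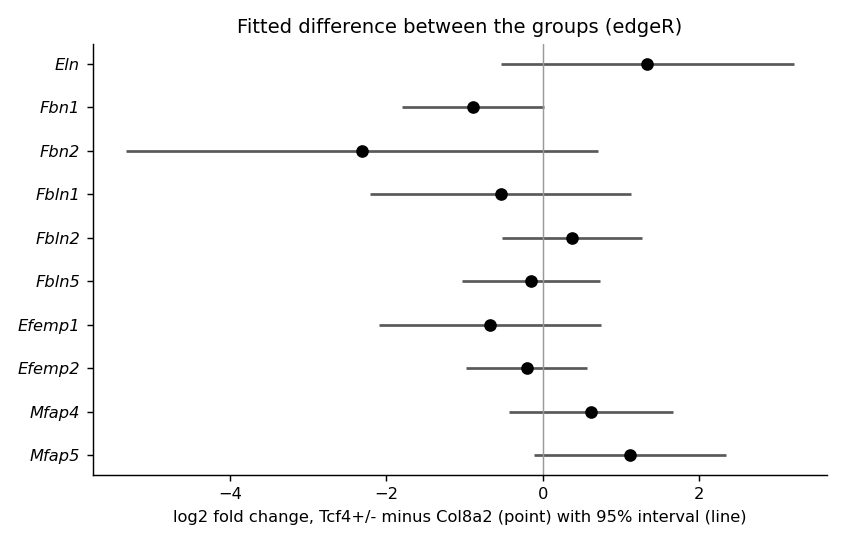
Fitted log2 fold change (horizontal axis, Tcf4+/- minus Col8a2) of each gene, with points for the edgeR estimate and lines for the 95% interval. Every interval includes 0, and those of Fbn1 (-1.81 to 0.02) and Mfap5 (-0.11 to 2.34) have 0 near one end.

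Levels of different genes were compared per length, as CPM divided by the effective length in kb that the deposited files give for that library. Mfap4 was the highest of the 10 with 214 ± 96.2 CPM per kb (SD, n = 6 libraries), followed by Efemp2 with 187 ± 51.9 and Fbln5 with 150 ± 45.0. Mfap4 exceeded Efemp2 in only 3 of 6 libraries and Efemp2 exceeded Fbln5 in 4 of 6, so these neighbours do not differ beyond their spread. Fbln1 came next with 121 ± 97.5 CPM per kb, below Fbln5 in 5 of 6 libraries. Fbln1 exceeded Efemp1, at 78.7 ± 54.8, in 6 of 6, but not always by much. Fbln1 and Efemp1 stood at 22.865 and 22.82 CPM per kb in Col8a2 replicate 3 and at 46.5 and 43.6 in Tcf4+/- replicate 1.

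The lower part of the order was wider apart. Fbln2 stood at 57.7 ± 24.1 CPM per kb and did not differ from Efemp1 beyond the spread, lying below it in 3 of 6 libraries. Mfap5 stood at 21.4 ± 13.4, below Fbln2 in 6 of 6 libraries and above Eln in 6 of 6. Eln (9.14 ± 7.73) and Fbn1 (6.85 ± 3.21) could not be ordered, since Eln was the higher in only 2 of 6 libraries, Tcf4+/- replicates 2 and 3. Fbn2 was last with 0.488 ± 0.592 CPM per kb.

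**Figure D3:**
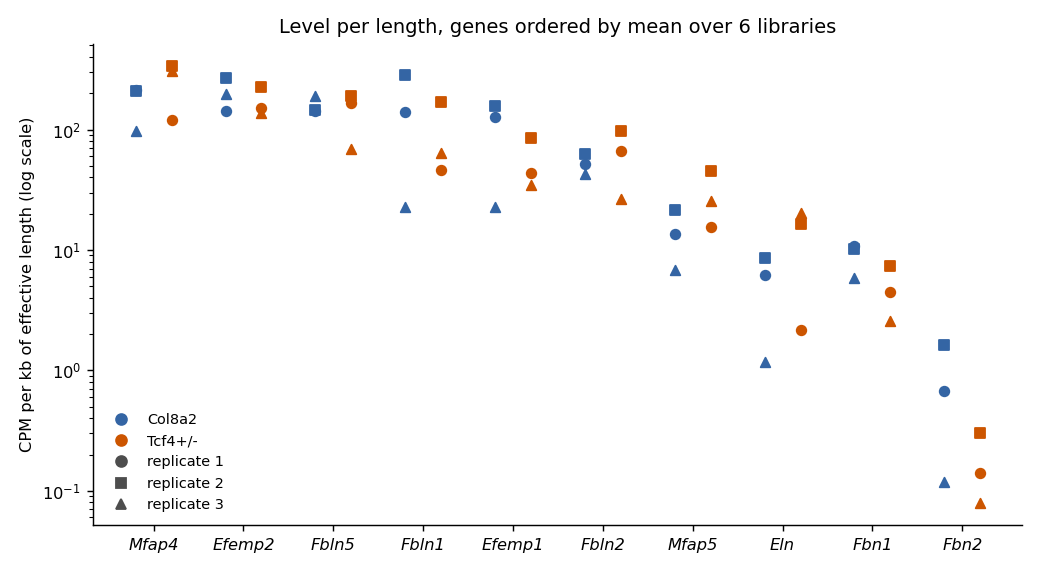
CPM per kb of effective length (vertical log axis) of each gene in the 6 libraries, with genes ordered by their mean, colours for groups and shapes for replicate numbers. The levels span from 0.488 CPM per kb for Fbn2 to 214 for Mfap4, and Eln and Fbn1 cross.

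The make-up of the set per length differed between libraries. Fibulin and Mfap4 transcripts made up most of the summed level in every library, while Eln was 0.199% to 2.95% of it and Fbn1 0.377% to 1.27%. Efemp2 and Fbln5 led in Col8a2 replicate 3, with 33.6% and 32.3% of the sum, and Fbln1 was 3.9% there. In Col8a2 replicate 2 Fbln1 led with 24.3%, and in Tcf4+/- replicate 3 Mfap4 did with 44.6%. Per length, Fbln5 exceeded Eln by 3.4 times in Tcf4+/- replicate 3 and by 162 times in Col8a2 replicate 3, the ends of the range.

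The length that RSEM weights by the share of each transcript gives a second readout that the counts do not. It was the same in all libraries for Fbn1, at 9847 bases, and nearly so for Mfap4, at 1697 to 1717 bases, and Efemp2, at 1500 to 1536 bases. For Fbn2 it was 11041 bases in 4 libraries and 2553 and 2711 bases in replicate 3 of the Col8a2 and Tcf4+/- groups, the libraries with 14 and 6 counts. The level of Fbn2 per length is uncertain in these 2. For Eln it ranged from 2620 to 3390 bases, with Tcf4+/- libraries at 3390, 3113 and 2950 and Col8a2 libraries at 2853, 3187 and 2620, so the groups overlapped. The groups did not overlap for Efemp1, where the length spanned 1206 to 1257 in Col8a2 and 1307 to 1424.5 in Tcf4+/- replicates. Efemp2 lengths, though close, were apart too, with Tcf4+/- at 1500 to 1505 and Col8a2 at 1512 to 1536. Differences in length between the groups were not tested.

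Libraries of the same group lay far apart for much of the set. The median deviation of the 10 genes from their own mean over the libraries was -1.29 on the log2 scale in Col8a2 replicate 3 and 0.81 in Tcf4+/- replicate 2. The same median over all genes tested lay between 0.03 and 0.10 in every library. Tcf4+/- replicate 2 was above the mean for 10 of 10 genes and Col8a2 replicate 2 for 9 of 10. Col8a2 replicate 3 and Tcf4+/- replicate 1 were each below it for 8 of 10, and Tcf4+/- replicate 3 for 7 of 10. Each of the 8 genes that were low in Col8a2 replicate 3 was so by a different amount, from -2.60 for Fbn2 to -0.08 for Fbn1, and Fbln5 and Efemp2 were above their mean there, at 0.38 and 0.10.

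Some of the genes had similar profiles over the libraries. The likeness measure is the root mean square difference between 2 profiles of log2 CPM, each centred on its mean over the 6 libraries, and over the 45 pairs its median was 0.995. Fbln1 and Efemp1 were the most alike, at 0.33, followed by Fbln2 and Fbln5 at 0.40 and by Mfap4 and Mfap5 at 0.44. Efemp2 was about as close to Fbln5, at 0.46, and to Fbln2, at 0.48, so these 3 fibulins lay near each other. Fbn1 was nearest to Fbln5, at 0.56. Eln and Fbn2 were the least alike, at 2.40: Eln was highest and Fbn2 lowest in Tcf4+/- replicate 3. These are descriptions of 6 libraries that differ in depth and in the markers below, and no p is attached to them.

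Several marker lists were also low in Col8a2 replicate 3. For trabecular meshwork, whose cells lie beside the endothelium at the edge of the cornea, all 4 markers were lowest in Col8a2 replicate 3 and 1 was highest in Tcf4+/- replicate 2. Their summed level was 579 to 1850 CPM in the Col8a2 group and 764 to 2222 CPM in the Tcf4+/- group, with 0 of 4 at 0 in any library. Of 5 pigment cell markers, 4 were lowest in Col8a2 replicate 3 and 4 highest in Tcf4+/- replicate 2, with sums of 336 to 1143 and 579 to 1499.9 CPM. Of 8 keratocyte markers, 6 were lowest and 5 highest in these same libraries, with sums of 6043 to 11938 and 8852 to 18333 CPM. Of 6 vascular endothelium markers, 5 were lowest and 5 highest there too, with sums of 21.3 to 77.9 and 55.8 to 132 CPM. Smooth muscle and pericyte markers followed only in part, with 3 of 7 lowest in Col8a2 replicate 3 and 4 highest in Tcf4+/- replicate 2. Their median deviations there were -0.42 and 0.80. For myeloid markers these were -0.51 and 0.12 and for Schwann cell markers -0.49 and 0.19, with the highest median in another library. The corneal epithelium, erythroid and photoreceptor lists did not follow these libraries. The median deviation in Col8a2 replicate 3 and Tcf4+/- replicate 2 was -0.33 and -0.71 for corneal epithelium, 0.20 and -0.40 for erythroid cells and -0.44 and -0.61 for photoreceptors.

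For ciliary epithelium, the tissue that anchors the zonule, the 3 markers summed to 35.6, 107 and 25.4 CPM in the Col8a2 libraries and to 40.5, 65.0 and 30.2 CPM in the Tcf4+/- libraries. Col8a2 replicate 2 was the highest library for these markers, as for Fbn2. Corneal endothelium markers instead had a median deviation of 0.40 in Col8a2 replicate 3 and -0.83 in Tcf4+/- replicate 3, where Fbln5 stood at 0.38 and -1.01. The part of other cell types in these levels was not tested.

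**Figure D4:**
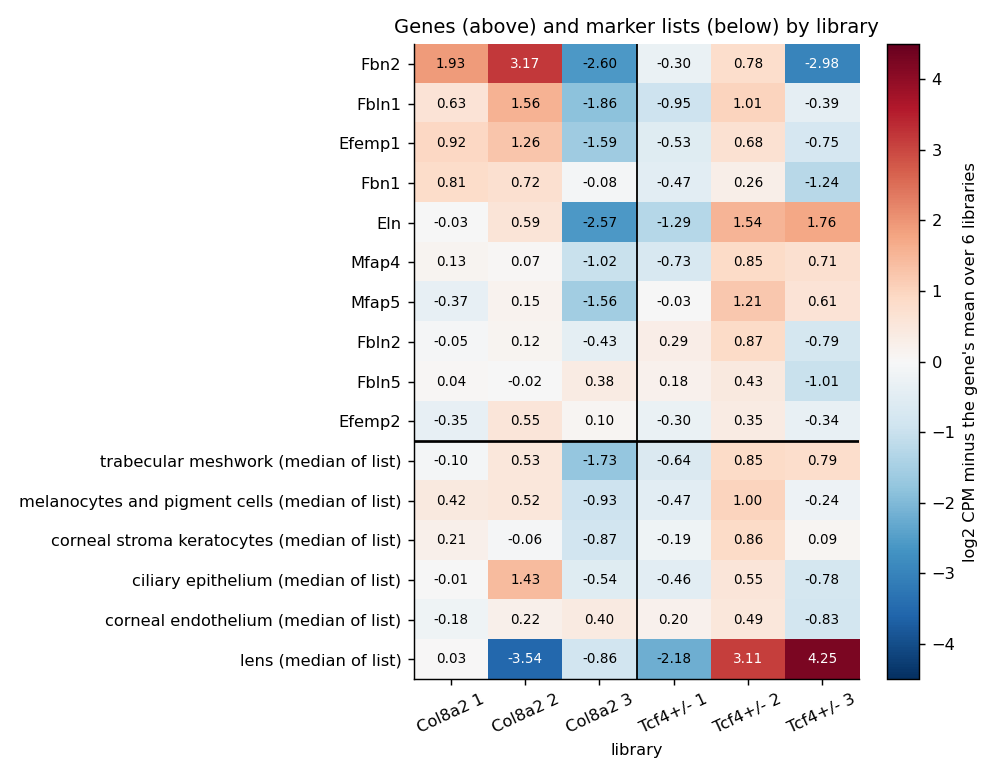
Log2 CPM minus the mean over the 6 libraries (colour and printed value) for the 10 genes (upper rows) and, for 6 marker lists, the median of that value over the list (lower rows), by library. Col8a2 replicate 3 is low for 8 of 10 genes and for trabecular meshwork (-1.73), pigment cell (-0.93) and keratocyte (-0.87) markers, and the lens row sets Tcf4+/- replicates 2 and 3 apart.

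Other genes of elastic fibre assembly did not pass the test either. The list holds 43 genes, of which 40 passed the filter on low counts, and 0 of 40 were called by edgeR (adjusted p = 0.99988 for each) or by DESeq2. By fitted sign 17 were higher and 23 lower in the Tcf4+/- group, with a median log2 fold change of -0.13. At an unadjusted p under 0.05 there were 2 of 40, beside 2.42% of all genes, and the groups did not overlap for 2 of 40, beside 8.1% of all genes. Elane, a neutrophil elastase, had 0 counts in every library, and Mmrn1 and Adamts17 did not pass the filter either.

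The cross-linking enzymes showed no common direction beyond the spread. Of 5 lysyl oxidase genes, 4 were fitted lower and 1 higher. Loxl1, a lysyl oxidase tied to elastic fibre upkeep, was the highest of them per length, at 78.8 CPM per kb, with a log2 fold change of -0.17. Loxl1 and Loxl4 were named after their values were seen. Loxl4 did not overlap between the groups, at 0.127, 1.05 and 0.613 CPM in the Col8a2 libraries and 3.85, 4.54 and 2.13 CPM in the Tcf4+/- libraries, from a low level. It had a log2 fold change of 2.55 (SE 1.22) and an unadjusted edgeR p of 0.0633.

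Among the latent TGF-beta binding proteins, which sit on fibrillin microfibrils, Ltbp4 had the smallest unadjusted p of the list, 0.0203 (edgeR). Its log2 fold change was 1.08 (SE 0.39). Ltbp4, which is needed for elastic fibre assembly, stood at 37.2, 42.1 and 33.8 CPM in the Col8a2 libraries and at 40.2, 123 and 75.9 CPM in the Tcf4+/- libraries. As for Eln and Mfap4, Tcf4+/- replicates 2 and 3 were the high ones and Tcf4+/- replicate 1 lay within the Col8a2 range. Ltbp3 was among the most abundant of the list per length, at 289 ± 131 CPM per kb (SD, n = 6 libraries), with a log2 fold change of -0.26.

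Of the integrin chains, cell receptors for fibrillin, fibronectin and the fibulins, 2 of 7 were fitted higher and 5 lower. Itga8 did not overlap between the groups, at 4.42, 0.626 and 0.909 CPM in the Col8a2 libraries and 7.35, 13.5 and 6.08 CPM in the Tcf4+/- libraries. For Itga8 the log2 fold change was 2.18 (SE 0.92), with an unadjusted edgeR p of 0.0400. Itgav and Itgb5 were the highest of these chains per length, at 140 and 106 CPM per kb, with log2 fold changes of -0.45 and -0.12. The lengths given for Itgav were short, at 605 to 938 bases, and that of Itgb5 was 1163 bases in Tcf4+/- replicate 3. In mean CPM Itgav, at 86.6, lay below Itgb5, at 191, and Itgb1, at 262. Itgb1 was named after its values were seen.

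None of the matrix ligands and proteases tested passed the test, and their groups overlapped. Levels ran from 1.47 CPM per kb for Vcan, the proteoglycan versican, to those of Timp3 and Fn1. Timp3, a metalloproteinase inhibitor that binds fibulin-3, was the highest of the list with 367 ± 136 CPM per kb, and fibronectin (Fn1) followed with 305 ± 164 (SD, n = 6 libraries). Their log2 fold changes were -0.33 and -0.86, and for both Tcf4+/- replicate 3 was the lowest library, at 484 CPM for Timp3 and 218 CPM for Fn1. Fn1 had means of 1614 ± 558 and 890.03 ± 601 CPM (SD, n = 3 each), a difference above either SD. The gelatinase Mmp2 stood at 123 CPM per kb with a log2 fold change of 0.04.

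**Figure D5:**
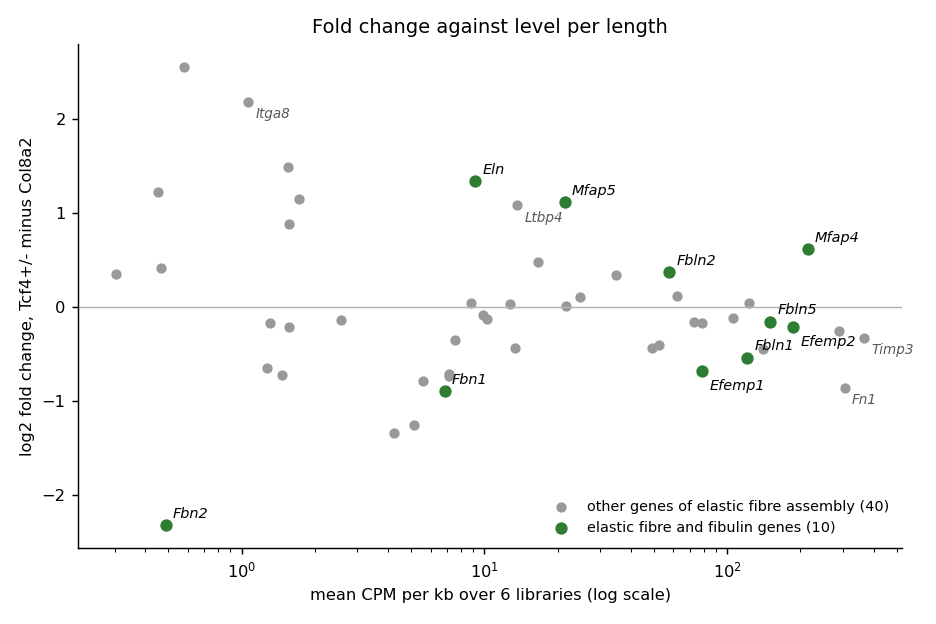
Log2 fold change (vertical axis, Tcf4+/- minus Col8a2) against mean CPM per kb over the 6 libraries (horizontal log axis) for the 10 genes (green) and 40 other genes of elastic fibre assembly (grey). Both sets lie on both sides of 0, and the larger fold changes, such as Fbn2 and Itga8, are at low levels.

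Genes outside the list were named for the likeness of their profile, by the same root mean square difference over the 6 libraries among 9412 protein-coding genes with a mean of at least 10 CPM, leaving out ribosomal protein genes and those with only a provisional symbol. The nearest to Eln were Mmp3, the metalloproteinase stromelysin-1, at 0.42, and Cyp26b1, a retinoic acid hydroxylase, at 0.48, where the median over all genes was 1.64. Mmp3 stood at 60.2, 184 and 12.6 CPM in the Col8a2 libraries and at 53.4, 258 and 215 CPM in the Tcf4+/- libraries, so it shared the low value of Col8a2 replicate 3 and the high values of Tcf4+/- replicates 2 and 3.

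Fbln1 and Efemp1 shared a near neighbour in Gpnmb, a glycoprotein of pigment cells and macrophages, at 0.28 and 0.19. Gpnmb stood at 422, 662 and 93.9 CPM in the Col8a2 libraries and at 204, 497 and 207 CPM in the Tcf4+/- libraries. The nearest gene was Slc26a4, the anion exchanger pendrin, for Fbln1, at 0.24, and Slc19a1, a folate carrier, for Efemp1, at 0.18.

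The other genes, whose levels varied less, had closer neighbours. Fbn1 was nearest to Aph1b, a subunit of gamma-secretase, at 0.10, and to Sesn2, a stress-response gene, at 0.17. Fbln5 was nearest to Dnajc3, a chaperone of the endoplasmic reticulum, and to Tmem150a, at 0.07 and 0.09, and Efemp2 to Ctsz, a lysosomal protease, and to Zdhhc1, at 0.08 each. Fbln2 was nearest to Atxn1l and AU040320, at 0.08 and 0.09. Mfap4 was nearest to Hsd17b11 and Tshz1, at 0.11 and 0.13, and Mfap5 to Creb3l1 and Smad1, at 0.13 and 0.18. Each likeness rests on 6 libraries and the best of 9412 genes, and no p is attached to it.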

How the data were processed

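Mouse RNA-seq libraries, 3 per group, were grouped by their titles. Per the labels' protocols, SMART-Seq HT gave full-length cDNA and Nextera XT the libraries, and neither is described as keeping strand. Build GRCm39 and the tools RSEM, STAR, DESeq2, fastp 0.23.2 and FastQC 0.12.1 are named in the submitters' processing notes. For the remaining versions and the annotation release: not given in the sources used here. As deposited, the expected counts are RSEM's estimates, unscaled to depth, and 9.97% of them are not whole. The authors' TPM values correct for effective length and have the same sum in each library. Per the file headers, the length and effective length of each gene are 2 further columns, and both were used.

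Identifiers were matched to symbols for 51884 of 57180 genes. Counts were rounded, filtered with filterByExpr and scaled by TMM (factors from 0.973 to 1.06). The groups were tested across all genes with edgeR 4.0.16 in R 4.3.3 (glmQLFit, robust; group as only term; Benjamini-Hochberg, threshold 0.05). An exact permutation test of 3 against 3 cannot go below p = 0.1. Log2 CPM used a prior count of 2. Reads of Eln, Fbn1, Fbn2, Efemp2 and Mfap4 cannot be told from those of an overlapping gene on the other strand (Gm30003, Gm9913, Gm26507, Mus81 and Mapk7 in GENCODE M21, used for names only). No pair of libraries was alike within sampling noise (chi-square per degree of freedom of at least 134).

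The genes, partner lists and marker lists were chosen with earlier results of these data known. Named by rule were all 10 genes, partner genes of unadjusted p under 0.05, the 6 partners of highest level per length, and the 2 nearest profiles of each gene of at least 10 CPM. Alternatives were DESeq2 1.42.0, its size factors, upper-quartile scaling, other filters, limma 3.58.1 on counts (voom) and on log2(TPM + 1) and log2(TPM + 0.1), the replicate number as a block, and leaving out each library. The fit without Tcf4+/- replicates 2 and 3 was added after seeing the data. The scripts were tested on simulated counts.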

Additional observations from a re-analysis of the deposited data

How the results depend on the processing

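None of the 10 genes and none of the 40 partner genes was called under any of the 16 other settings. Over all genes, DESeq2 called 105, and leaving out 1 library gave 0 to 4. The 4 came without Col8a2 replicate 3 (Gbp2b, Pbp2, Adh6a and Rpl34-ps1, named after their values were seen). Without that library Fbn1, Fbn2 and Efemp1 had unadjusted p of 0.0268, 0.0219 and 0.0301 (edgeR). Of all 18887 genes tested in that fit, 839 had an unadjusted p under 0.05. An unadjusted p under 0.05 was also found for Fbn1 without Tcf4+/- replicate 2 (0.00926), Eln without Tcf4+/- replicate 1 (0.0402), Mfap5 without Col8a2 replicate 2 (0.0355) and Fbln2 without Tcf4+/- replicate 3 (0.0494). Over all genes, in the same order of fits, 656 of 18482, 563 of 18785, 734 of 18796 and 437 of 18741 had such a p. Fbn1, Fbn2, Efemp1 and Mfap5 kept their sign under all 16 settings. The sign of the log2 fold change was opposite for Eln, at -1.12, and for Mfap4, at -0.55, without Tcf4+/- replicates 2 and 3, and for Fbln5 it was 0.0293 there. Leaving out each library in turn gave 0.84 to 1.97 for Eln, -1.30 to 0.27 for Fbln1, -0.0446 to 0.70 for Fbln2, -0.43 to 0.16 for Fbln5 and -0.46 to 0.0526 for Efemp2. Fbln2 was at -0.0857 on log2(TPM + 1) and -0.0925 on log2(TPM + 0.1). The cause was not tested. The median of the 10 genes, -0.18, was 0.16 without Col8a2 replicate 2, 0.04 without Tcf4+/- replicate 3 and -0.79 without Tcf4+/- replicates 2 and 3. With the replicate block 0 genes were called, as without it, and Fbn1 was at -0.97 with an unadjusted edgeR p of 0.0108. In that fit 432 of 17639 genes had an unadjusted p under 0.05. The labels do not say whether the replicate numbers pair the samples. Deviations of same-numbered libraries had correlations across genes of -0.02, 0.14 and -0.02, and those of differently numbered libraries ran from -0.09 to 0.09. With 3 libraries per group these values cannot settle whether samples were paired. Fbn2 had 14 counts in Col8a2 replicate 3, of 51302379 in total, and 6 in Tcf4+/- replicate 3, so its level there is imprecise.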

Other observations

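The balance of elastin and fibrillin-1 transcripts differed more between libraries than either gene alone. Per length, Eln over Fbn1 was 0.577, 0.839 and 0.201 in Col8a2 replicates 1 to 3 and 0.489, 2.26 and 7.83 in Tcf4+/- replicates 1 to 3. Eln exceeded Fbn1 only in Tcf4+/- replicates 2 and 3, and Tcf4+/- replicate 1 lay within the Col8a2 range. This pair was chosen after the values were seen and its ratio was not tested.

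Fbln5 stood at 155 CPM in Tcf4+/- replicate 3 against 308 CPM or more elsewhere, and Fn1 and Timp3 were lowest there too. That library had the lowest depth, the lowest sum of corneal endothelium markers (12235 CPM) and the highest sums of lens and photoreceptor markers (10781 and 9383 CPM). Single endothelium markers differed: Slc4a11, Car3, Tjp1 and Ptgds were each lower in another library. The part of these in the level of Fbln5 was not tested.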
